A study of Drosophila melanogaster with 37 samples.

Results

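ChIP-seq peak lists of CLAMP and of GAF were set against each other in control cells, meaning S2 cells that had received dsRNA against GFP, a gene that fly cells lack. S2 is a male embryonic cell line of Drosophila melanogaster. The members were chosen by their labels alone, as the GFP RNAi libraries precipitated with a rabbit antibody against CLAMP (replicates 1, 2 and 4) or against GAF (replicates 1, 2 and 3) that have a list of narrow peaks. These are 6 of the 37 samples of the series, 25 of which have a list, and they hold 18542 CLAMP and 35452 GAF regions on the chromosome arms 2L, 2R, 3L, 3R, 4 and X. Both groups share the line, the dsRNA at 4.5 ug/mL, crosslinking by formaldehyde and shearing by sonication, and they differ in the antibody. The labels do not say whether replicates are separate cultures, so p-values measure the spread between these libraries.

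CLAMP, a protein with a row of zinc fingers, recognises GA-rich DNA and helps to recruit the MSL complex, the dosage compensation machinery, to the X chromosome of males. GAF, the product of Trl, binds GAGA sequences through a single zinc finger, carries a BTB domain through which it multimerises, and is known for keeping promoters open. Both proteins recognise runs of alternating G and A. The question is where their binding coincides in control cells and where it does not.

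Depth of reads is unknown, because the lists hold no counts. The CLAMP lists held 5380, 2178 and 10984 regions in replicates 1, 2 and 4, and the GAF lists held 29233, 3543 and 2676 in replicates 1, 2 and 3. Between 646 and 4969 regions per list had a −log10 q of at least 5, and GAF replicate 1 had the longest list and the most such regions. Counts of merged regions and sites, distances between sites and values at sites called in all lists came from whole lists unless stated otherwise. Because list lengths differed, other quantities that depend on how far down a list reaches were taken from lists of equal length. These are the 2178 regions of highest −log10 q in each library, and whole lists are named as such where their values are given. At that length the last region had a −log10 q of 24.4 in GAF replicate 1 and of 2.02 to 7.20 in the others except CLAMP replicate 2, whose whole list is used and which holds 261 regions with a −log10 q of 0.

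The share of peaks on X was higher in every CLAMP library than in every GAF library, and that of GAF was close to the share of X in the length of the arms. In equal-length lists 29.9%, 30.1% and 27.3% of CLAMP peaks lay on X in replicates 1, 2 and 4. For GAF the share on X was 18.9%, 18.8% and 19.0% in replicates 1, 2 and 3, while X makes up 18.6% of the span of the 6 arms. All CLAMP libraries lay above all GAF libraries. The difference was 10.2 percentage points (29.1% ± 1.57 against 18.9% ± 0.0956, SD, n = 3 and 3; exact two-sided permutation p 0.1, the smallest that 3 against 3 libraries allow, adjusted over 8 measures 0.4).

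Density showed where the additional CLAMP peaks lay. CLAMP had 28.3 ± 1.52 peaks per Mb on X and 15.8 ± 0.349 per Mb on the autosomes, and GAF had 18.4 ± 0.0930 and 18.1 ± 0.0213 (SD, n = 3 each). On each of the arms 2L, 2R, 3L and 3R all GAF libraries had more peaks per Mb than all CLAMP libraries, with means of 15.5 against 14.2, 20.2 against 16.7, 18.4 against 16.2 and 18.8 against 16.5. With lists of 1 fixed length a surplus on X has to appear as a deficit on the autosomes. Arm 4, a small and largely heterochromatic chromosome, held 7 or 8 peaks of each library, so a difference there was not detectable.

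**Figure D1:**
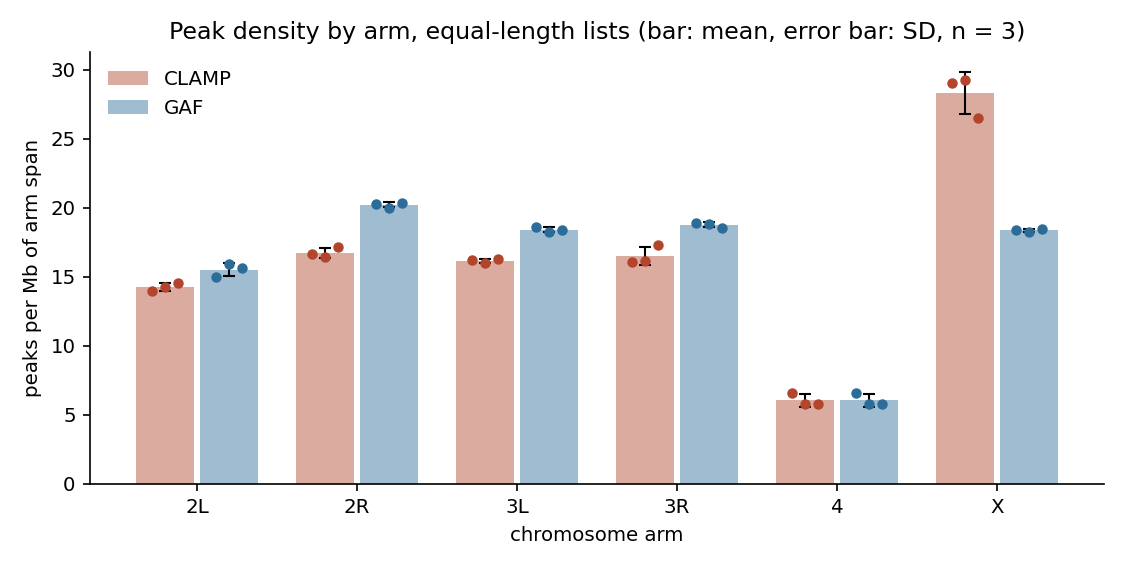
Peaks per Mb of arm span (y axis) on each chromosome arm (x axis) for CLAMP (red) and GAF (blue) in equal-length lists; bars are means of 3 libraries, error bars are SD and points are single libraries. On X the CLAMP libraries lie between 26.5 and 29.3 and the GAF libraries between 18.3 and 18.4, while on 2L, 2R, 3L and 3R the GAF libraries lie above the CLAMP libraries.

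The X share of whole lists did not separate the factors, and within each factor it was lower the longer the list. It was 18.3%, 30.1% and 8.99% for CLAMP and 6.02%, 18.5% and 18.7% for GAF. The lowest value of each factor belongs to its longest list, CLAMP replicate 4 and GAF replicate 1. In these whole lists the difference was 4.73 points (exact permutation p 0.6, n = 3 and 3).

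Peaks on X had higher folds than autosomal peaks of the same library in all 6 libraries. Within each library, peaks were placed on a percentile scale of fold enrichment, the authors' ratio over background at the summit. The median percentile of X peaks exceeded that of autosomal peaks by 10.9, 11.04 and 13.9 points in CLAMP replicates 1, 2 and 4 and by 9.69, 6.13 and 2.87 points in GAF replicates 1, 2 and 3. Groups did not overlap and differed by 5.71 points (exact permutation p 0.1, n = 3 and 3, adjusted over 8 measures 0.4). In whole lists the values were 28.9, 11.04 and 38.5 points for CLAMP and 21.4, 7.18 and 5.06 points for GAF, which overlapped and differed by 14.9 points (exact permutation p 0.2, n = 3 and 3). When peaks needed a −log10 q of 5 the difference was −0.524 points.

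Peak widths did not tell the factors apart at equal length, while in whole lists every GAF median exceeded every CLAMP median. In equal-length lists the median width was 468, 244 and 386 bp in CLAMP replicates 1, 2 and 4 and 591, 389 and 383.5 bp in GAF replicates 1, 2 and 3. The ranges overlapped (366 ± 113 against 454.5 ± 118 bp, SD, n = 3 and 3; exact permutation p 0.5, adjusted 0.8). In whole lists GAF medians of 294, 305 and 353 bp lay above CLAMP medians of 284, 244 and 278 bp (difference −48.7 bp, exact permutation p 0.1, the smallest possible, adjusted 0.533). The narrowest peak of a library, which sets a floor to its widths, was 139 to 176 bp for CLAMP and 158 to 194 bp for GAF, and was lowest in CLAMP replicate 2.

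Peaks at sites of the other factor were wider than the remaining peaks in all 6 libraries. Sharing needed at least 1 bp in common, so a wider peak is more readily counted as shared, and no correction was made for this. In equal-length lists the medians were 564 against 413 bp, 276 against 229 bp and 415 against 369 bp in CLAMP replicates 1, 2 and 4. In GAF replicates 1, 2 and 3 they were 674 against 542 bp, 422 against 364 bp and 419 against 366 bp. The surplus was alike for both factors, 81.3 ± 60.3 bp for CLAMP and 81.0 ± 44.2 bp for GAF (SD, n = 3 each, not tested), and in each factor it was largest in replicate 1.

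Spacing between neighbouring peaks overlapped between the factors, by its median and by the share of close neighbours. The median distance from a summit to the next on the same arm was 17.5, 16.8 and 19.5 kb in CLAMP replicates 1, 2 and 4 and 19.6, 17.6 and 17.1 kb in GAF replicates 1, 2 and 3 (difference −0.166 kb, exact permutation p 0.7, n = 3 and 3, adjusted 0.933). A neighbour within 2 kb was present for 29.0%, 35.6% and 30.6% of CLAMP summits and for 34.8%, 40.5% and 40.1% of GAF summits. The ranges overlapped through CLAMP replicate 2 and GAF replicate 1, and the difference of −6.70 points gave an exact permutation p of 0.2 (n = 3 and 3, adjusted 0.4). It was −8.65 points without CLAMP replicate 2 and −8.54 points without GAF replicate 1. Each gave the smallest p possible for 3 against 2 libraries, 0.2 by the same exact test. These are the libraries through which the ranges overlapped, so the separation follows from the choice. Without CLAMP replicate 1 or 4 or GAF replicate 2 or 3 it was −6.13 to −5.33 points, each with a p of 0.4 by that test.

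The lower quartile of spacing was 2.94 to 4.10 kb for CLAMP and 2.26 to 2.89 kb for GAF in equal-length lists, a separation by a narrow margin. In whole lists it was 0.996 to 2.94 kb and 1.08 to 1.88 kb, which overlapped. The upper quartile overlapped at equal length, at 64.0 to 66.2 kb for CLAMP and 63.5 to 65.4 kb for GAF. On X the median spacing was 12.6, 11.9 and 14.8 kb for CLAMP and 14.7, 12.8 and 13.1 kb for GAF. These ranges overlapped, although CLAMP had more peaks per Mb on X. On autosomes it was 20.3, 19.8 and 22.9 kb for CLAMP and 20.1, 18.6 and 17.9 kb for GAF.

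**Figure D2:**
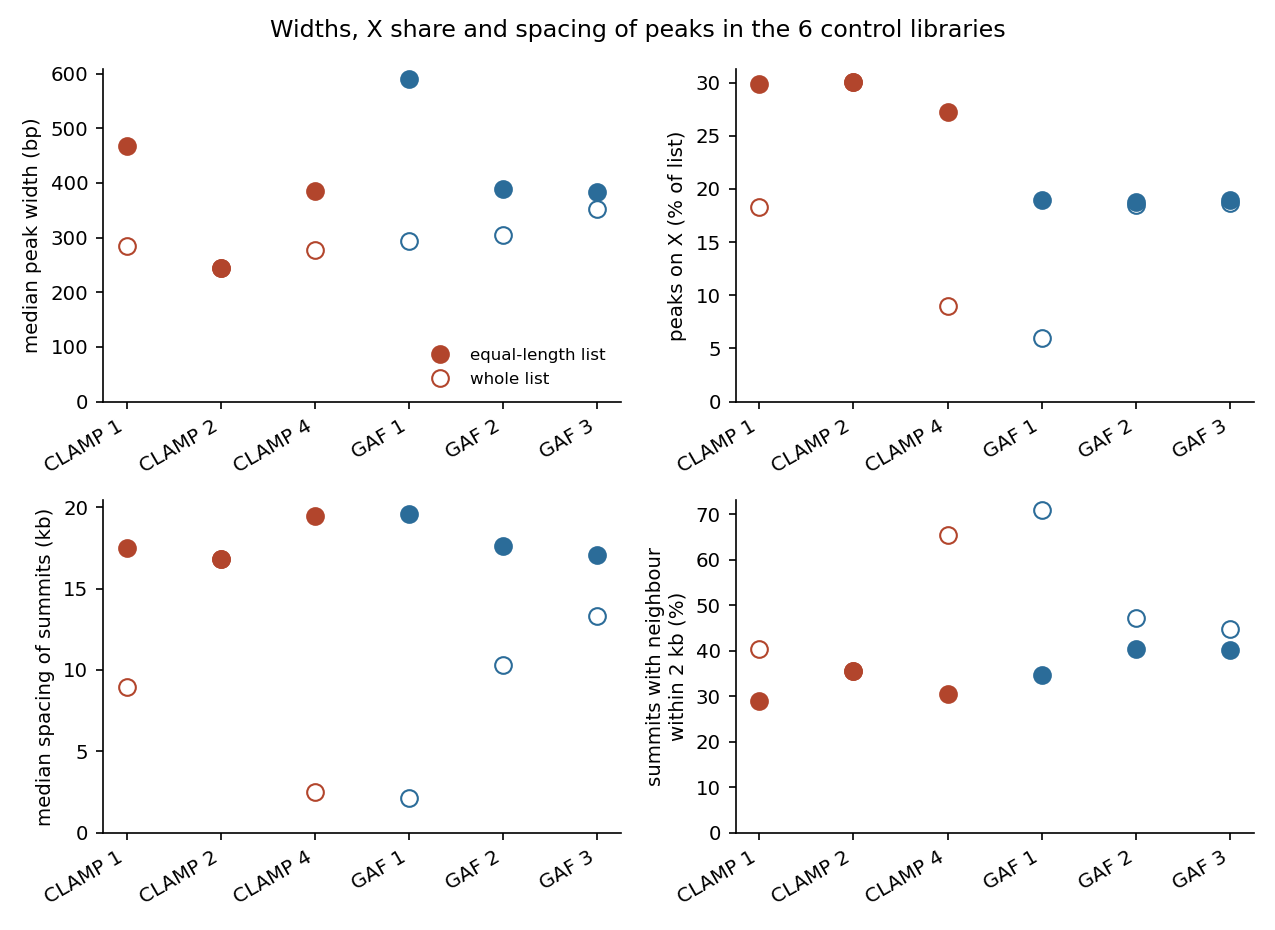
Median peak width in bp, share of peaks on X in %, median spacing of neighbouring summits in kb and share of summits with a neighbour within 2 kb in % (y axes) for each of the 6 libraries (x axes); filled points are equal-length lists and open points whole lists, which coincide for CLAMP replicate 2. The share on X of equal-length lists separates the CLAMP libraries (27.3% to 30.1%) from the GAF libraries (18.8% to 19.0%), as does the median width of whole lists (244 to 284 bp against 294 to 353 bp), and the other measures overlap.

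Replicates of a factor called mostly the same regions, and the factors had fewer regions in common. Between lists of equal length, averaged over both directions, 78.5% to 87.5% of peaks overlapped in the 3 pairs of CLAMP libraries and 87.5% to 91.3% in the 3 pairs of GAF libraries. In the 9 pairs of a CLAMP with a GAF library 34.7% to 42.7% overlapped. At equal length no pair between factors reached the lowest pair within a factor. In whole lists, which differ in length, the ranges overlapped, with 35.5% to 68.4% within CLAMP, 52.6% to 84.6% within GAF and 24.0% to 41.8% between factors, and CLAMP replicates 1 and 4 were the lowest pair within a factor. Set against sites of the other factor, meaning regions called in at least 2 of its 3 lists, 41.4%, 38.8% and 39.4% of CLAMP peaks and 39.1%, 38.4% and 37.7% of GAF peaks were shared (difference 1.44 points, exact permutation p 0.2, n = 3 and 3, adjusted 0.4).

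In equal-length lists the shared percentage was lower on X than on autosomes in all CLAMP libraries and higher on X in all GAF libraries. CLAMP peaks on X lay at GAF sites in 30.0%, 28.2% and 28.6% in replicates 1, 2 and 4, against 46.2%, 43.3% and 43.4% on autosomes. GAF peaks on X lay at CLAMP sites in 43.2%, 43.3% and 43.3% in replicates 1, 2 and 3, against 38.1%, 37.3% and 36.4% on autosomes. Subtracting the autosomal from the X share gave −15.4 ± 0.792 points for CLAMP and 6.01 ± 0.937 points for GAF (SD, n = 3 each, not tested). Overlap is mutual, so each percentage also depends on the number of peaks it is taken of. On X these were a mean of 633 for CLAMP and 411 for GAF. In whole lists the X minus autosomal share was 6.46, −16.4 and 18.2 points in CLAMP replicates 1, 2 and 4 (2.78 ± 17.6). For GAF it was 9.97 ± 4.40 points there.

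Once lists were of equal length, overlap with the other factor had no relation to strength that all libraries shared. The cut leaves out the regions of lower −log10 q in the longer lists, so a narrower range of strength is compared there. In the 20% of peaks with the highest fold 35.8% to 47.7% of CLAMP and 34.4% to 44.6% of GAF peaks lay at sites of the other factor, and in the lowest 20% 37.9% to 50.1% and 30.3% to 45.5%. The median fold percentile of shared peaks minus that of remaining peaks was 8.29, −0.344 and −4.94 points in CLAMP replicates 1, 2 and 4 and 9.04, −4.20 and −3.95 points in GAF replicates 1, 2 and 3. It was positive in replicate 1 of both factors and negative in the rest (difference 0.704 points, exact permutation p 1, n = 3 and 3, adjusted 1). In whole lists the highest 20% were shared more often than the lowest in all 6 libraries. The shares were 58.1% against 11.8%, 55.5% against 52.0% and 43.9% against 7.87% in CLAMP replicates 1, 2 and 4 and 24.1% against 0.808%, 46.1% against 21.8% and 46.1% against 38.1% in GAF replicates 1, 2 and 3. In the lowest 20% of the 3 longest lists, CLAMP replicates 1 and 4 and GAF replicate 1, 12.3%, 7.01% and 0.859% of peaks lay at a site of their own factor.

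**Figure D3:**
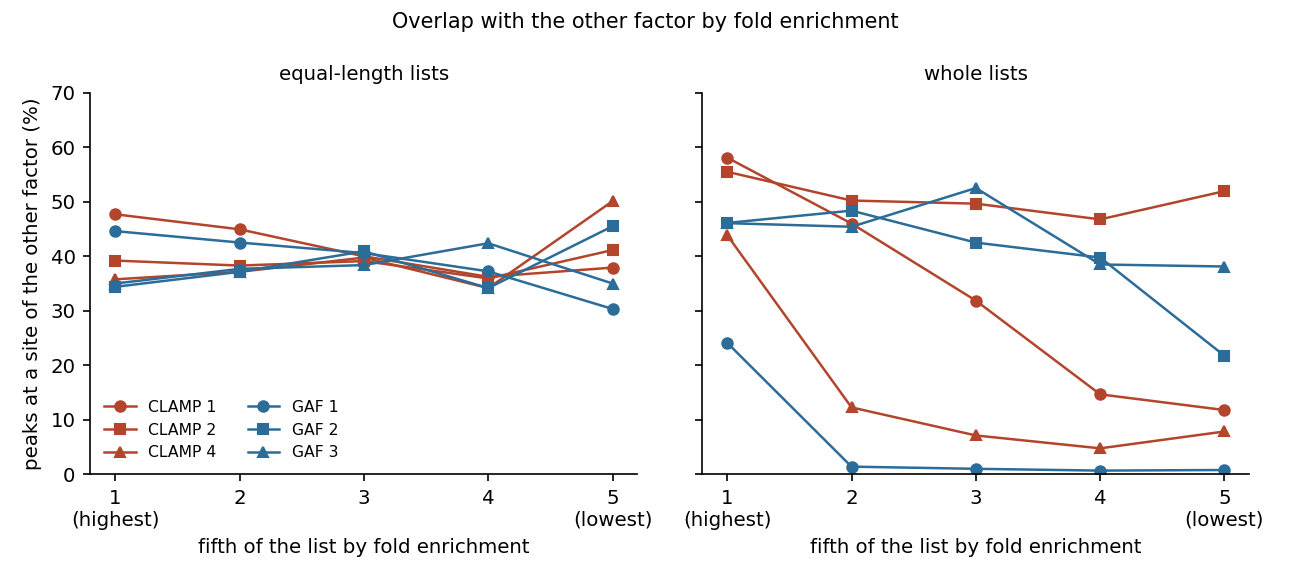
Share of peaks at a site of the other factor in % (y axis) in 5 bins of 20% of a list ordered by fold enrichment (x axis) for the 3 CLAMP (red) and 3 GAF (blue) libraries, in equal-length lists on the left and whole lists on the right. Equal-length lists stay between 30.3% and 50.1% in every bin, while in whole lists GAF replicate 1 goes from 24.1% in the bin of highest fold to 1.42% in the next.

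Merging all regions of the 6 whole lists gave 38446 regions. Called in all 6 lists were 771 (2.01% of the 38446), in every CLAMP list and no GAF list 637 (1.66%), and in every GAF list and no CLAMP list 788 (2.05%). Most regions, 31728, were called in 1 list, 23708 of them in a GAF list. Of the regions of CLAMP alone 264 lay on X (41.4%), of those of GAF alone 156 (19.8%), and of those in all 6 lists 162 (21.0%). Median widths of the merged regions were 458, 468 and 800 bp in this order, and merging 6 lists can only widen a region relative to merging 3 of them. MSL3 regions of control cells are those called in at least 2 MSL3 lists, and at least 1 bp in common counted as overlap. They overlapped 58.3% of the X regions of CLAMP alone (154 of 264, exact 95% interval 52.1 to 64.3). On X they overlapped 15.4% of those in all 6 lists (25 of 162, 10.2 to 21.9) and 5.77% of those of GAF alone (9 of 156, 2.67 to 10.7). On autosomes they overlapped 13.4% of the regions of CLAMP alone (50 of 373, 10.1 to 17.3). The autosomal shares were 10.2% for regions in all 6 lists (62 of 609, 7.89 to 12.9) and 9.97% for GAF alone (63 of 632, 7.75 to 12.6). When peaks needed a −log10 q of 5, the regions in all 6 lists numbered 192, those of CLAMP alone 234 and those of GAF alone 783, so GAF alone was then the largest of these groups. Without GAF replicate 3 those of GAF alone numbered 1208. These counts depend on list length. In equal-length lists 565 regions were called in all 6 lists, 820 were of CLAMP alone and 888 of GAF alone. Regions in all 6 lists were then the smallest of these groups, while in whole lists those of CLAMP alone were.

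In whole lists, sites that no site of the other factor overlapped mostly lay over 1 kb from the nearest of them. Distances expected from random placement were not computed, so closeness relative to such placement was not tested. A site is a region called in at least 2 of the 3 lists of its factor, so 1 list of the other factor can still call it. Of the merged regions, 190 were called in 3 CLAMP lists and 1 GAF list, and 482 in 3 GAF lists and 1 CLAMP list. For CLAMP sites that no GAF site overlapped, the nearest GAF site was at a median of 8.40 kb (quartiles 2.33 and 22.7 kb), and 225 of 1397 (16.1%) had one within 1 kb. GAF sites without CLAMP had the nearest CLAMP site at a median of 9.61 kb (quartiles 2.27 and 27.0 kb), with 309 of 1885 (16.4%) within 1 kb. On X this distance was 8.91 kb for CLAMP sites and 5.43 kb for GAF sites, and on autosomes 8.28 and 11.3 kb. Where sites did overlap the relation was nearly always 1 to 1, since 30 of 1354 CLAMP sites held 2 or more GAF sites and 50 of 1334 GAF sites held 2 or more CLAMP sites.

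Of the first 5 sites of CLAMP alone 4 were autosomal, while 41.4% of all 637 lay on X. By mean fold percentile the first was 2L:4809998-4810594, with folds of 12.9, 9.002 and 7.53 in CLAMP replicates 1, 2 and 4. It was followed by 3L:6735231-6736340 (11.8, 8.81 and 7.66), 3L:14592570-14593090 (10.7, 8.05 and 8.9998), 3L:6598806-6599471 (9.53, 7.76 and 9.48) and X:15754366-15754980 (9.01, 8.91 and 6.66). The last of these overlapped an MSL3 region and the other 4 did not.

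Of the first 5 sites of GAF alone 4 lay on X, against 19.8% of all 788. First came X:8314809-8315592, with folds of 12.9, 12.9 and 9.56 in GAF replicates 1, 2 and 3. Next were X:6875534-6876155 (14.1, 11.4 and 9.47), X:7089862-7090570 (13.3, 12.8 and 8.63), 2R:19546441-19547329 (10.8, 13.6 and 8.42) and X:8923881-8924487 (15.3, 12.3 and 8.35). None of these 5 overlapped an MSL3 region. Both orders use the values that define them and carry no test.

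At sites that all 6 lists call, CLAMP and GAF summits were farther apart than the summits of replicates. A summit is the base of highest signal that the peak caller reports, and the peak of highest fold was used in each library. Over the same 771 sites the median distance between the summits of 2 libraries was 15, 14 and 17 bp in the 3 pairs of CLAMP libraries and 18, 20 and 13 bp in the 3 pairs of GAF libraries. In the 9 pairs of a CLAMP with a GAF library it was 48 to 59 bp. All 9 lay above all 6, by 36.9 bp between the means. Within 50 bp of each other were 87.0% to 89.8% of summits between CLAMP replicates, 78.9% to 87.7% between GAF replicates and 45.3% to 51.4% between factors. The 15 pairs share libraries and sites, so no test was made.

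**Figure D4:**
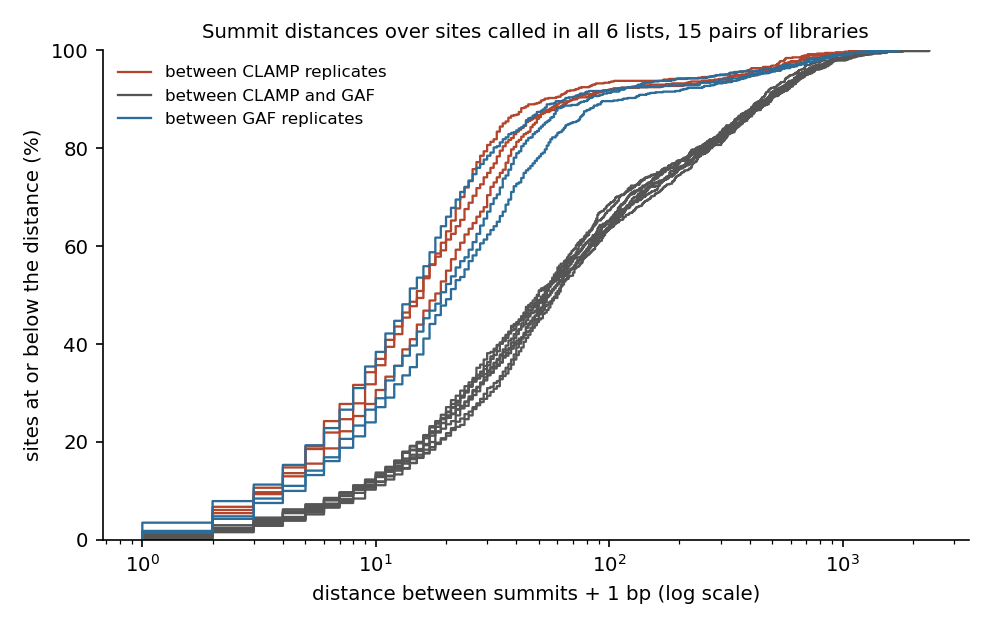
Share of the 771 sites called in all 6 lists (y axis, %) whose summits in 2 libraries lie at or below a distance (x axis, bp plus 1, log scale), with 1 line for each of the 15 pairs of libraries. The 9 lines between CLAMP and GAF (grey, medians 48 to 59 bp) run to the right of the 3 lines between CLAMP replicates (red, 14 to 17 bp) and the 3 between GAF replicates (blue, 13 to 20 bp).

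Distances between the factors ranged from coincident summits to neighbouring ones. With the median of the 3 summits of a factor as its position, CLAMP and GAF lay within 25 bp at 258 sites (33.5%), farther but within 100 bp at 244 (31.6%), farther but within 200 bp at 85 (11.0%) and over 200 bp apart at 184 (23.9%). For comparison, the 3 CLAMP summits of a site spanned a median of 25 bp (quartiles 15 and 44 bp) and the 3 GAF summits 29 bp (quartiles 16 and 53 bp). Among the 531 sites with 1 peak in each list, 70 (13.2%) were over 200 bp apart. Of all 771, sites over 200 bp apart had a median width of 1132.5 bp, against 699 bp for those within 25 bp. A region has to span the summits of both factors, so the greater width follows in part from the definition of the class. Of the sites within 25 bp 15.9% lay on X, and of those over 25 and up to 100 bp apart 25.8%, against 21.0% of all 771.

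At 433 of the 771 sites (56.2%) the 3 CLAMP summits all lay on 1 side of the 3 GAF summits. The gap between the nearest summits of the factors was 49 bp at the median of these sites (quartiles 18 and 161 bp), and at 137 of them it exceeded 100 bp. On X 102 of 162 sites had separate summits (63.0%), and on autosomes 331 of 609 (54.4%). Among the 531 sites with 1 peak in every list, 302 had separate summits (56.9%), and the distance between factors minus that within factors was 27.2 bp there. Without regions of several peaks the distance was thus smaller and the share of separate sites close to that of all 771.

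The displacement recurred in libraries that had no part in choosing these sites. CLAMP was also precipitated from cells with RNAi against GAF (2 lists) and GAF from cells with RNAi against CLAMP (3 lists). At all of the 771 sites they call, the CLAMP summits of these lists lay at a median of 14 and 14 bp from the CLAMP position of control cells and 47.5 and 48 bp from the GAF position. The GAF summits lay 11.5, 12 and 15 bp from the GAF position and 42.5, 44 and 51 bp from the CLAMP position. At the 433 sites with separate summits, the summit was nearer to the position of its own factor at 85.2% and 83.2% of the sites called for CLAMP and at 83.8%, 84.6% and 81.5% for GAF. The RNAi conditions differ from the control, and the effect of the RNAi itself was not examined here.

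The sites with the longest gaps were taken from those where the 3 summits of each factor lay within 100 bp, so close replicates there follow from the choice. At 2R:17600492-17602523 the CLAMP summits of replicates 1, 2 and 4 were at 17602336, 17602319 and 17602333, and the GAF summits of replicates 1, 2 and 3 at 17600776, 17600784 and 17600779. The summits used for the factors were 1535 bp apart there, while the replicates of each lay within 17 bp. At 3R:24888559-24890779 the gap was 1445 bp, with CLAMP summits at 24889010, 24889022 and 24889005 and GAF summits at 24890479, 24890480 and 24890467. The next 3 sites by the size of the gap were on X, at X:7986018-7987910 (1289 bp), X:7193616-7195415 (1122 bp) and X:3671996-3673617 (1056 bp). The merged regions there were 1622 to 2221 bp wide.

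The strongest sites common to all lists held both arrangements. The first by mean fold percentile, 2L:7827691-7829347, had folds of 11.7, 8.04 and 8.93 for CLAMP and 12.4, 10.8 and 7.83 for GAF. Its CLAMP summits at 7828365, 7828389 and 7828388 and its GAF summits at 7829111, 7829077 and 7829032 left a gap of 643 bp. At X:19576660-19577733 the positions of the factors were 1 bp apart, with folds of 8.01, 6.98 and 3.70 for CLAMP and 12.4, 11.8 and 7.59 for GAF. At 3L:6896924-6897676 the positions were 16 bp apart. Both of these sites overlapped an MSL3 region. The other 2 were the neighbours 2R:18129260-18130994, where summits of each factor spanned 714 and 940 bp, and 2R:18131058-18131879, where the gap was 33 bp.

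Fold ranks of the 771 sites were more alike between replicates than between factors. Spearman coefficients of fold were 0.63, 0.55 and 0.56 in the 3 pairs of CLAMP libraries and 0.61, 0.68 and 0.60 in the 3 pairs of GAF libraries. In the 9 pairs of a CLAMP with a GAF library they were 0.02 to 0.26. The highest of these 9 were CLAMP replicate 1 with GAF replicate 1 (0.26) and CLAMP replicate 2 with GAF replicate 2 (0.19), and the other 7 were 0.02 to 0.10. These coefficients are descriptions over sites that share libraries, and no p is given. Among the 192 sites called in all 6 lists with a −log10 q of 5 or more, they were 0.19 to 0.54 within factors and 0.08 to 0.54 between factors, so the separation did not hold there.

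Between the mean percentiles of the 3 CLAMP and the 3 GAF libraries the Spearman coefficient was 0.13 over all 771 sites, 0.02 over the 162 on X and 0.14 over the 609 on autosomes. By distance between the positions of the factors it was 0.18 for sites within 25 bp, 0.005 for those over 25 and up to 100 bp apart, 0.21 for those over 100 and up to 200 bp apart and 0.22 for those over 200 bp apart, with no steady order. X sites stood higher than autosomal ones for both factors, with median percentiles of 63.6 against 45.8 for CLAMP and 57.1 against 48.8 for GAF.

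At 147 of the 771 sites (19.1%) every CLAMP percentile exceeded every GAF percentile, and at 138 (17.9%) the reverse held. The CLAMP-ranked sites lay on X in 41 cases (27.9%) and the GAF-ranked ones in 27 (19.6%). Those over 200 bp apart were 24 of the 147 (16.3%) and 39 of the 138 (28.3%). An MSL3 region overlapped 8 of the 41 X sites ranked higher by CLAMP (19.5%, exact 95% interval 8.82 to 34.9) and 3 of the 27 ranked higher by GAF (11.1%, 2.35 to 29.2). The intervals overlap and cover counting error only, and a difference was not detectable with these numbers. In equal-length lists, which share 565 sites, 80 and 85 sites were ranked apart. Without CLAMP replicate 2 the counts were 265 and 267, and without GAF replicate 3 they were 228 and 240.

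**Figure D5:**
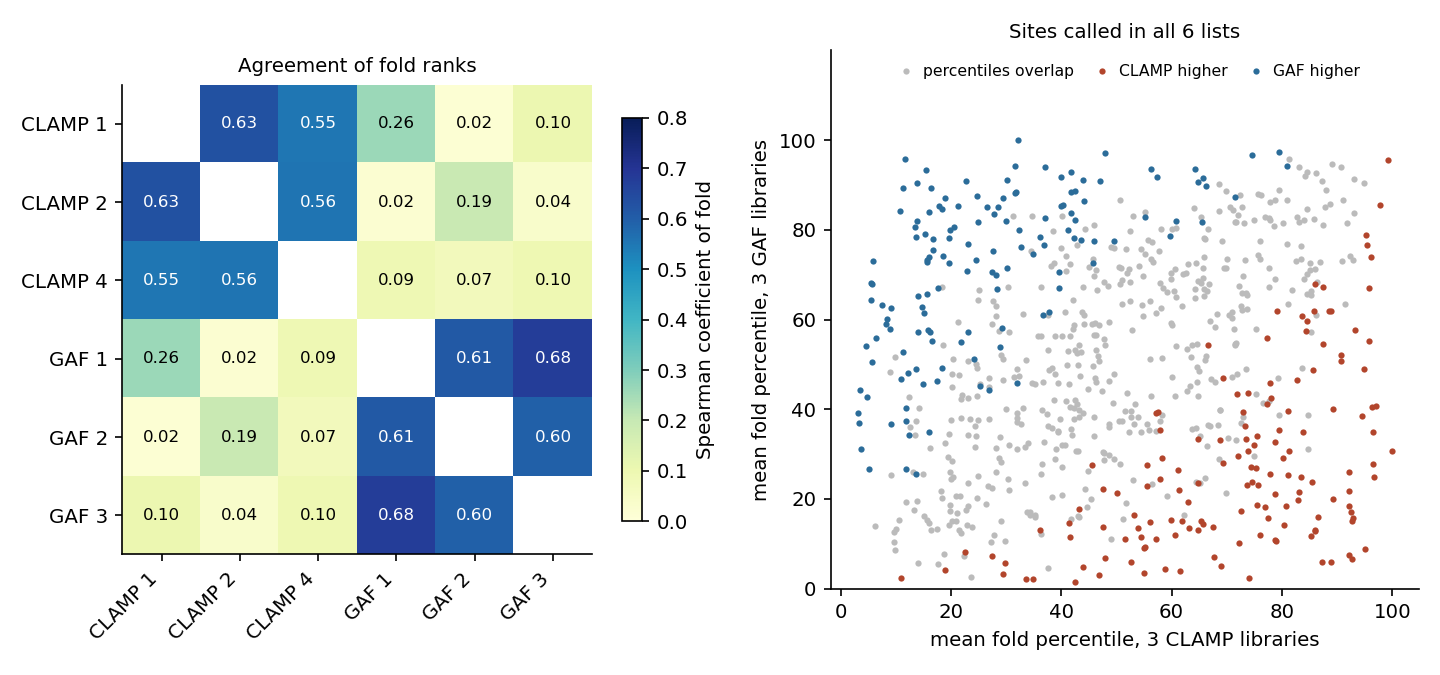
Left, Spearman coefficients of fold enrichment over the 771 sites called in all 6 lists for each pair of libraries (both axes: libraries; colour: coefficient). Right, each site by its mean fold percentile in the CLAMP (x axis) and GAF (y axis) libraries, with the 147 sites ranked higher in every CLAMP library in red, the 138 ranked higher in every GAF library in blue and the rest in grey. Coefficients are 0.55 to 0.68 within factors and 0.02 to 0.26 between them.

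The order of these sites also recurred in the RNAi lists. In the CLAMP lists of GAF RNAi the sites ranked higher by CLAMP had median fold percentiles of 66.8 and 56.9, and those ranked higher by GAF had 25.7 and 38.9. In the GAF lists of CLAMP RNAi the CLAMP-ranked sites had 32.9, 34.9 and 32.0, and the GAF-ranked sites 58.8, 60.7 and 62.1. All 5 lists thus had the direction of the control. These medians are over the sites each list called, and the CLAMP lists called 130 and 116 of the 138 GAF-ranked sites. Sites in neither set had medians of 50.1 to 51.8 in the same lists.

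The 5 sites with the widest separation of ranks toward CLAMP lay on 2R, 3L, 3R and X. At 3L:4625436-4626421 the folds were 11.3, 6.74 and 5.36 in CLAMP replicates 1, 2 and 4 and 3.07, 3.17 and 2.50 in GAF replicates 1, 2 and 3. These are percentiles of 98.6, 94.3 and 85.3 for CLAMP and of 6.10, 6.87 and 6.87 for GAF among the 771. At 3R:9702748-9703336 the folds were 7.91, 8.14 and 8.93 for CLAMP and 2.94, 3.87 and 2.51 for GAF, with positions 41 bp apart. The remaining CLAMP-ranked sites of the first 5 were 2R:8791701-8792451, 2R:20949071-20949570 and X:4977451-4978615. Of the 5, only 2R:8791701-8792451 overlapped an MSL3 region.

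In the other direction X:13535635-13536391 came first, with folds of 2.84, 1.87 and 2.38 for CLAMP and of 15.8, 9.09 and 8.97 for GAF. Its positions were 97 bp apart, and all 3 summits of each factor lay on their own side. At X:18206472-18207191 the CLAMP folds of 3.95, 3.82 and 2.31 stood against GAF folds of 16.9, 13.7 and 9.65. The CLAMP summits there spanned 3 bp and the GAF summits 5 bp, and the positions were 26 bp apart. The other GAF-ranked sites of the first 5 were 3L:21001809-21003391, 2L:3729498-3730701 and 3L:14265795-14266386. All of these were chosen by the values shown, and they carry no test.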

How the data were processed

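Libraries were grouped by their titles. The submitters' processing notes name build dm3, MACS2 2.1.1 and Bowtie; Bowtie's version, the caller's options and its control are not given in the sources used here. The authors deposited narrow peaks called per library, with fold enrichment as a ratio at the summit, −log10 p and −log10 q, and the summit's distance from the start. MSL3 lists of control cells and the CLAMP and GAF lists of the other factor's RNAi served as further readouts. Regions sharing at least 1 bp were merged. Percentiles of fold were taken within a library. Library values of the factors were tested by exact permutation, two-sided, and adjusted p are Benjamini-Hochberg values over the 8 measures. Coordinates are 1-based on dm3. No dm3 sequence or annotation was used here, so no gene or sequence is given.

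Sites named are the first 5 by each of these rules: mean fold percentile among sites of all 6 lists, of CLAMP alone and of GAF alone; the gap between percentiles of the factors in each direction; and the gap between summits where those of each factor lie within 100 bp. The comparison, measures and rules were chosen with earlier results of these data known. Alternatives were whole lists, lists ordered by fold, a −log10 q limit of 5, all sequences, 50% overlap, regions with 1 peak in each list, a replicate block, and omission of each library in turn. Overlap and summit code was tested on simulated data. Python 3.11.15, numpy 2.4.6, scipy 1.17.1, pandas 2.3.3 and matplotlib 3.10.9 were used. Peak lists hold no reads, so depth and its precision are unknown.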

Additional observations from a re-analysis of the deposited data

How the results depend on the processing

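No comparison of libraries could pass 0.05, since 3 against 3 libraries allow 0.1 and 3 against 2 allow 0.2. The difference in X share kept its direction in every alternative (4.73 to 13.2 points), as did that in width (−139.5 to −13.7 bp) and in summits with a neighbour within 2 kb (−12.4 to −5.30 points). Other measures did not. The arm 4 difference was 0, with −0.0153 to 0.615 points elsewhere. Spacing, −0.166 kb, was 0.841 kb in whole lists, 0.490 kb in lists ordered by fold and 31.8 kb when peaks needed a −log10 q of 5, and −0.938 to 0.571 kb when a library was left out. The difference in shared percentage was 13.6 points at that q limit (exact permutation p 0.1, n = 3 and 3). It was −3.20 to 8.30 points when a library was left out. A site must then be called in both remaining lists of its factor, which makes the sites of that factor fewer by construction. The fold percentile of shared peaks was −11.7 points at the q limit and −3.31 to 5.25 when a library was left out, and that of X peaks was −0.524 at the q limit; the cause was not tested. At that limit the summit difference was 41.6 bp, the rank difference −0.118, sites in all lists 192, of CLAMP alone 234, with separate summits 115, and ranked apart 14 and 18. Equal-length lists gave a rank difference of −0.362 (−0.505 in whole lists) and 80 and 85 sites ranked apart, and regions with 1 peak in each list a summit difference of 27.2 bp. Leaving out a library gave summit differences of 29.5 to 37.5 bp, rank differences of −0.595 to −0.493, 776 to 1035 sites in all lists, 641 to 954 of CLAMP alone, 789 to 1208 of GAF alone, 474 to 622 with separate summits, and 169 to 265 and 172 to 267 ranked higher by CLAMP and GAF. Restricting peaks by q leaves fewer sites by construction.

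The factors share replicate numbers 1 and 2. With the replicate number as a block, CLAMP minus GAF was 11.1 points for X share, −134 bp for width, 0 for arm 4, −1.44 kb for spacing, −5.30 points for close neighbours, 1.31 points for sharing, 1.55 points for fold of shared peaks and 3.08 points for fold of X peaks; 2 pairs allow an exact p no lower than 0.5. Deviations of fold percentile from the factor's mean had a Pearson coefficient of 0.45 for number 1 and 0.43 for number 2, and −0.39 to 0.11 for libraries of unlike number. This is a hint from the data, and the labels do not say what a number marks.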

Other observations

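Whole lists differed on arm 4 and X in ways that equal-length lists did not show. CLAMP replicate 1 called 103 peaks on arm 4 (1.91% of its list), CLAMP replicate 4 and GAF replicate 1 called 40 each, and the remaining libraries 7 to 10. Peak density on X relative to autosomes was 0.98, 1.88 and 0.43 in whole CLAMP lists of replicates 1, 2 and 4 and 0.28, 0.99 and 1.01 in GAF lists of replicates 1, 2 and 3. In equal-length lists it was 1.64 to 1.88 for CLAMP and 1.01 to 1.02 for GAF. Of all regions of CLAMP replicate 1, 165 (2.98%) lay outside the 6 arms, against 0.0374% to 0.361% in the other libraries.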
